A study of Mus musculus with 11 samples.

Results

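C1qa, C1qb, C1qc, C3, Cfb and Cfp are complement genes that macrophages transcribe themselves. They were taken by name, and all 6 were found among the 42375 named genes of the count table. RNA was sequenced from bone marrow derived macrophages of C57BL/6 mice kept for 16 hours with a gapmer, an antisense oligonucleotide that recruits RNase H to its target. One gapmer was aimed at a long noncoding RNA, MERRICAL (KD), and the other was the one labelled NS. The 11 libraries formed 4 groups, with 2 of M1 KD, 3 of M1 NS, 3 of M0 KD and 3 of M0 NS cells. M0 and M1 name the activation state of the cells, and the sources used here do not name the stimulus behind M1. Every cell received a gapmer, so no group shows untreated cells, and MERRICAL itself, which names no gene of the table, was not analysed here. The labels do not say whether replicates came from different cultures or animals, so p-values reflect the spread among the libraries sequenced, and that spread may be technical.

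Complement is a set of plasma proteins that tag and destroy particles by a cascade of proteases. C1q, built from the chains that C1qa, C1qb and C1qc encode, recognises antibody, dying cells and other targets and starts the classical pathway. C3 is the protein on which all activation routes converge, and its cleaved form coats targets for uptake. Factor B, the product of Cfb, supplies the protease of the alternative pathway convertase, and properdin, the product of Cfp, stabilises that convertase. Liver makes most C3 and factor B in plasma, whereas macrophages and other myeloid cells are main sources of C1q and properdin.

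Total counts ran from 30040632 to 43250392 per library. All 12 macrophage markers looked at had counts in every library, with summed levels of 15155 to 18329 CPM (counts adjusted for library total and TMM factor) in M1 KD, 14034.5 to 16273 in M1 NS, 20861 to 22129 in M0 KD and 26741 to 27921 in M0 NS. Of the 12 macrophage markers, 5 were called higher and 5 lower in M1 NS against M0 NS (26.9% and 28.6% of all genes). Lyz2, the most abundant of them, averaged 5639 CPM in M1 NS and 17460 CPM in M0 NS. All 12 markers of the M1 state were called higher in M1 NS than in M0 NS and in M1 KD than in M0 KD (26.9% of all genes in each). Over all genes tested, M0 KD replicate 4 was nearest to M0 NS replicate 2 (Pearson's r = 0.984 across 15024 genes, which are not independent replicates), while every other library was nearest to one of its own group. The library labelled M0 KD replicate 4 bears on the M0 results, and the log2 fold changes of M0 KD against M0 NS are given with and without it. The M1 KD libraries carry label numbers of their own, 5 and 6, so that anything tied to those numbers cannot be told apart from the gapmer in M1 cells. Lymphocyte markers (8 genes) summed to at most 6.23 CPM and mast cell and basophil markers (5 genes) to at most 6.73 CPM in any library.

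The C1q genes lie side by side on chromosome 4 of GRCm38, all on the minus strand. C1qb runs from 136880129 to 136886187, C1qc from 136889804 to 136893065 and C1qa from 136895917 to 136898803 in GENCODE M21, and each has 3 exons. The gaps between them are 3616 and 2851 bases. C3, on chromosome 17 from 57203970 to 57228136, has 42 exon blocks, and Cfb, on the same chromosome from 34856374 to 34862518, has 17. Cfp lies on chromosome X from 20925454 to 20931555 with 9 exon blocks. These 3 genes are also on the minus strand. GENCODE M21 may not be the annotation the authors counted with.

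The 250 bases before the RefSeq start are printed for C3, the gene whose order among the members changed most with M1, and for the neighbours C1qb and C1qc, so that their promoters can be compared. They come from RefSeq on GRCm38.p6, which held 4 of the 6 members (C1qb, C1qc, C3 and Cfp), and are written 5′ to 3′ on the minus strand, with motif matches in capitals. The C1qc window lies partly inside the gene as GENCODE M21 draws it.
C3 chr17:57228137-57228386: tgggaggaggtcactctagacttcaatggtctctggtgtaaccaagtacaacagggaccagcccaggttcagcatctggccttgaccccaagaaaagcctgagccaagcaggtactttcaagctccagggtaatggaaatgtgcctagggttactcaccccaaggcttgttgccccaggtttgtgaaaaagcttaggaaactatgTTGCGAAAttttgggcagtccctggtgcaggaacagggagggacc
C1qb chr4:136886201-136886450: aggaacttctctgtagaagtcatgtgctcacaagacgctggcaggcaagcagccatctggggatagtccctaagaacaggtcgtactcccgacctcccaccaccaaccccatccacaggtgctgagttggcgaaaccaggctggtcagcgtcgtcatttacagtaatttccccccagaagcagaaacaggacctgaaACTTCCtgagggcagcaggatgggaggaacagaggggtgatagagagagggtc
C1qc chr4:136892915-136893164: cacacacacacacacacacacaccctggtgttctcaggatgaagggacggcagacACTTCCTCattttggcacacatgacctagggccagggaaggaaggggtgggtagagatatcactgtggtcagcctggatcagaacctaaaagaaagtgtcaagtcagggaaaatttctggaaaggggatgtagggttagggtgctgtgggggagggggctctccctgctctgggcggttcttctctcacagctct
The capitals in C3 mark TTGCGNAA, a form of the C/EBP motif, which begins 45 bases before the start and was found in 0.67% of 32851 promoter windows of this length. In C1qc they mark GAGGAAGT, a form of the PU.1 motif read on the other strand, held by 2.44% of windows. That match contains GGAAGT, an ETS core held by 19.7% of windows, and the capitals in C1qb mark the same core, also on the other strand. An IRF form (GAAA, 2 free bases, GAAA), an NF-kappaB form (GGG, 2 free bases, TTTCC) and a STAT form (TTCNNNGAA), searched on both strands like the others, matched in none of the 4 windows and in 2.98%, 1.41% and 7.02% of all windows. The Cfp window held none of the 6 motifs.

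Levels can be set side by side between genes only per length, here as CPM per kilobase of exon. In M1 NS cells C3 led with 1325 ± 116 CPM per kilobase (SD, n = 3), followed by C1qb at 1071 ± 373, Cfp at 310 ± 101, C1qc at 297 ± 105, C1qa at 111 ± 40.3 and Cfb at 28.2 ± 13.0. In M0 NS cells C1qb led with 1524 ± 159 CPM per kilobase (SD, n = 3), followed by C1qc at 569 ± 33.1, Cfp at 514 ± 29.5, C1qa at 230.3 ± 13.2, C3 at 64.3 ± 22.5 and Cfb at 0.954 ± 0.535. C3 was thus the fifth of the 6 in M0 NS and the first in M1 NS, where it was above C1qb in each of the 3 libraries, although by little in replicate 2 (1438 against 1405 CPM per kilobase). In M1 KD, C1qb led instead, with 832 and 1573 CPM per kilobase in replicates 5 and 6 against 484 and 803 for C3. C3 RNA took 0.2097% to 0.622% of all counts in the M1 libraries, against 0.0141% to 0.0470% in the M0 libraries.

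**Figure D1:**
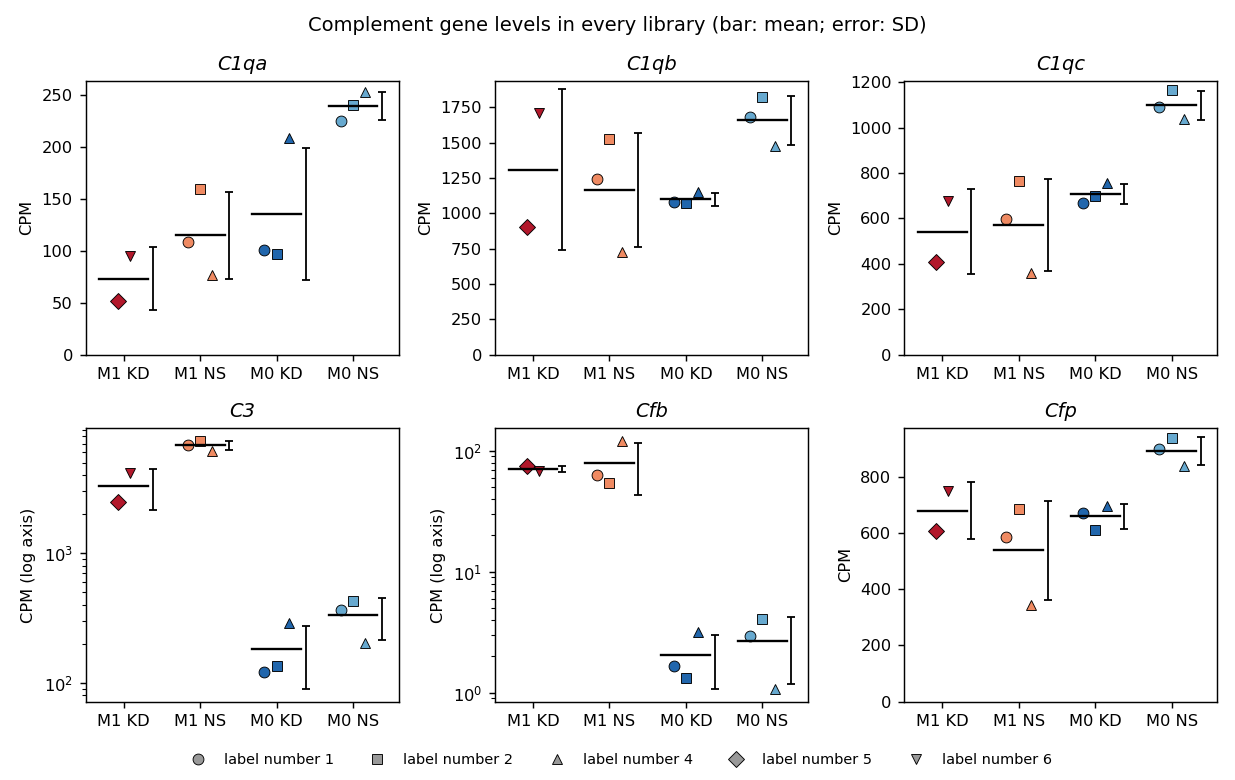
Level of each complement gene in CPM in every library, one panel per gene, with groups along the x axis, points shaped by label number, a bar at the group mean and an error bar of 1 SD; C3 and Cfb have a log axis. C3 and Cfb lie far higher in both M1 groups, while the other 4 genes have their highest mean in M0 NS.

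The effect of the M1 state was read from M1 NS against M0 NS. C3 and Cfb rose with M1 by 20.6-fold and 29.7-fold, whereas C1qa, C1qc and Cfp fell. C1qb, at 0.70 of its M0 NS level, did not pass the test. Thus 5 of the 6 genes were called by edgeR's quasi-likelihood test at an adjusted p under 0.05, against a background of 55.5% of the 15024 genes tested. Rises were called for 26.9% of all genes and falls for 28.6%. For the same 5 members the M1 NS and M0 NS libraries occupied separate CPM ranges, as they did for 61.4% of all genes.

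C3 was at 6853, 7394 and 6202 CPM in M1 NS replicates 1, 2 and 4, against 361, 429 and 203 CPM in M0 NS replicates 1, 2 and 4. Every M1 NS library lay far above every M0 NS library. The log2 fold change of C3 was 4.37 (SE 0.40, 95% interval 3.50 to 5.23, edgeR adjusted p = 2.08e-06), higher than that of 98.3% of genes.

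Cfb was at 63.2, 54.2 and 122 CPM in M1 NS replicates 1, 2 and 4, against 2.96, 4.06 and 1.07 CPM in the M0 NS replicates. The groups did not overlap, although libraries of one group differed widely (coefficients of variation of 46.1% in M1 NS and 56.1% in M0 NS). Its log2 fold change was 4.89 (SE 0.48, 95% interval 3.85 to 5.94, edgeR adjusted p = 3.60e-06). In GENCODE M21 a second gene, Gm20547, joins Cfb to its neighbour C2 and shares 2246 bases, or 79.5%, of the Cfb exons on the same strand. Gm20547 held 1 count over all 11 libraries, Cfb 13059 and C2 580. The sources used here do not say how reads in shared exons were assigned, so the levels of Cfb and C2 may not hold all their reads, and this was not tested.

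Among the C1q chains, C1qa was at 108, 160 and 76.9 CPM in M1 NS replicates 1, 2 and 4, against 225, 240.3 and 253 CPM in the M0 NS replicates. All M1 NS libraries were lower. The log2 fold change of C1qa was -1.06 (SE 0.33, edgeR adjusted p = 0.0166). The call ended without M1 NS replicate 1 (adjusted p = 0.0562) or M1 NS replicate 4 (adjusted p = 0.0784), with log2 fold changes of -1.01 and -0.82.

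C1qc was at 597, 763 and 360 CPM in M1 NS replicates 1, 2 and 4, against 1093, 1165 and 1038 CPM in M0 NS, again with no overlap. Its log2 fold change was -0.94 (SE 0.25, edgeR adjusted p = 0.00687). C1qb was at 1240, 1528 and 727 CPM in M1 NS and at 1680, 1820 and 1476 CPM in M0 NS, and M1 NS replicate 2 reached into the M0 NS range. Its log2 fold change was -0.51 (SE 0.27, 95% interval -1.10 to 0.08, edgeR adjusted p = 0.129). The value was -0.25 (adjusted p = 0.382) without M1 NS replicate 4. C1qb was called lower without M1 NS replicate 2 (-0.75, adjusted p = 0.0441), with no filter on low counts (-0.54, adjusted p = 0.0156) and with library size as the only scaling (-0.91, adjusted p = 0.00854), a scaling under which the median of all genes was -0.42 rather than -0.04.

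Cfp was at 587, 684 and 344 CPM in M1 NS replicates 1, 2 and 4, against 899, 940 and 838 CPM in M0 NS. The M1 NS libraries were all lower, and replicate 4 was the lowest, as for each C1q chain. The log2 fold change was -0.73 (SE 0.22, edgeR adjusted p = 0.0123), and it was still called at -0.48 without M1 NS replicate 4 (adjusted p = 0.0154) and at -1.13 with library size as the only scaling (adjusted p = 4.02e-04). Granulocytes also store properdin. The summed level of 16 neutrophil and granulocyte precursor markers was 386 to 483 CPM in M1 NS against 1655 to 2758 CPM in M0 NS. Of the 16, 14 were called lower, against 28.6% of all genes. In bulk RNA, fewer cells of a type and less RNA per cell cannot be told apart, and the part of these cells in the Cfp result was not tested.

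All members but Cfb had the same high and low libraries within the M1 groups. In M1 NS, replicate 2 was highest and replicate 4 lowest for C1qa, C1qb, C1qc, C3 and Cfp, and in M1 KD replicate 6 was above replicate 5, whereas Cfb had the opposite order in both groups. Over the 3 C1q genes the coefficient of variation was 34.7% to 43.6% in M1 KD and 34.8% to 36.4% in M1 NS, 4.25% to 46.9% in M0 KD, where C1qa was the highest, and 5.74% to 10.4% in M0 NS. The summed level of 7 dendritic cell markers, most of it from the chemokine receptor gene Ccr7, was 301, 338 and 107 CPM in M1 NS replicates 1, 2 and 4, and 131 and 611 CPM in M1 KD replicates 5 and 6. Over these 5 libraries it had the order of C1qb, which was at 905 and 1711 CPM in M1 KD replicates 5 and 6. This order was seen after the values were known. Ccr7 itself averaged 230 CPM in M1 NS and 1.20 CPM in M0 NS. Of the 7 markers, 4 were called higher and 2 lower in M1 NS against M0 NS (26.9% and 28.6% of all genes). The sum thus mostly follows Ccr7 and is no measure of dendritic cells, and its part in the C1q results was not tested.

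**Figure D2:**
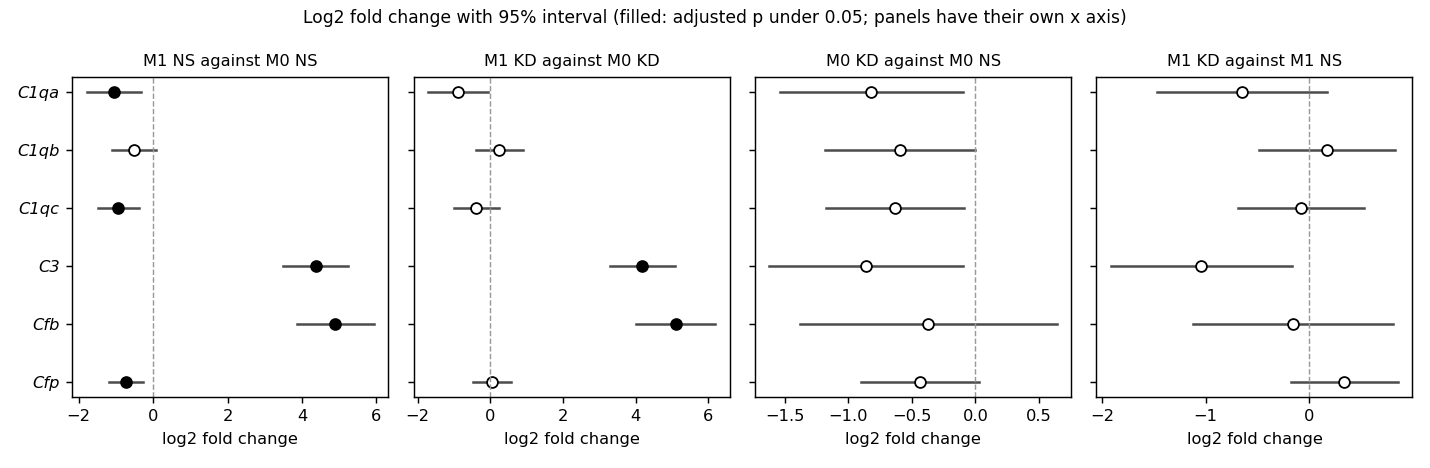
Log2 fold change of each complement gene (x axis) with its 95% interval in 4 comparisons, one panel each with its own scale; filled points passed the edgeR test. C3 and Cfb are at 4.37 and 4.89 in M1 NS against M0 NS, and no gene passed in either comparison of KD with NS.

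Part of the state difference was also called under the MERRICAL gapmer, in M1 KD against M0 KD. C3 and Cfb rose again, and no other member passed, so that 2 of 6 were called against 58.3% of all genes (26.9% higher and 31.4% lower). C3 was at 2489 and 4130 CPM in M1 KD replicates 5 and 6, against 122, 135 and 290 CPM in M0 KD replicates 1, 2 and 4. The log2 fold change was 4.18 (SE 0.41, edgeR adjusted p = 3.93e-06).

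Cfb was at 74.4 and 68.6 CPM in M1 KD against 1.67, 1.33 and 3.17 CPM in M0 KD (log2 fold change 5.11, SE 0.50, edgeR adjusted p = 3.97e-06). No library of M0 KD came near the M1 KD libraries for either gene, and without M0 KD replicate 4 the log2 fold changes were 4.69 for C3 and 5.58 for Cfb. C1qa was at 51.6 and 95.01 CPM in M1 KD against 101, 96.9 and 209 CPM in M0 KD, all M1 KD libraries being lower (as for 40.6% of all genes), at a log2 fold change of -0.89 (SE 0.38, edgeR adjusted p = 0.0609). That value passed without M0 KD replicate 1 (-1.06, adjusted p = 0.0445), M0 KD replicate 2 (-1.08, 0.0385) or M1 KD replicate 6 (-1.40, 0.0359), and with library size as the only scaling (-1.39, 0.00717) or no filter on low counts (-0.90, 1.37e-05). Without M0 KD replicate 4 it was -0.44 (adjusted p = 0.274).

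C1qc had a log2 fold change of -0.38 between M1 KD and M0 KD (95% interval -0.996 to 0.23), C1qb 0.25 (-0.40 to 0.90) and Cfp 0.05 (-0.48 to 0.57), and their CPM ranges overlapped. With library size as the only scaling, where the median of all genes was -0.60 rather than -0.11, C1qb and Cfp turned to -0.24 and -0.44 and C1qc was called lower (-0.88, edgeR adjusted p = 0.0125). Without M1 KD replicate 6, C1qb was at -0.28 and Cfp at -0.11, and without M0 KD replicate 2 Cfp was at -0.01.

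M0 KD against M0 NS gave the effect of the MERRICAL gapmer without M1 activation. Every member had a lower mean in M0 KD, with log2 fold changes from -0.86 for C3 to -0.37 for Cfb, but none passed edgeR's test over all genes, where 0% of all genes were called. At an unadjusted p under 0.05 stood 4 members (C1qa, C1qb, C1qc and C3), and 1947 of the 15024 genes. DESeq2, limma-voom and limma-trend also called 0 members. CPM ranges did not overlap and were lower in M0 KD for 4 of the 6 members, against 17.9% of all genes.

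C1qb was at 1077, 1069 and 1154 CPM in M0 KD replicates 1, 2 and 4, against 1680, 1820 and 1476 CPM in M0 NS replicates 1, 2 and 4. The M0 KD libraries lay close together and below all M0 NS libraries. The log2 fold change was -0.59 (SE 0.27, 95% interval -1.18 to -0.004, edgeR adjusted p = 0.384). C1qc was at 668, 700.1 and 756 CPM in M0 KD, against 1093, 1165 and 1038 CPM in M0 NS, also apart (log2 fold change -0.63, SE 0.25, edgeR adjusted p = 0.351). Cfp was at 670.0, 611 and 696 CPM in M0 KD, against 899, 940 and 838 CPM in M0 NS, apart as well (log2 fold change -0.44, SE 0.21, edgeR adjusted p = 0.405). In a fit of the 6 M0 libraries alone, which called 1103 genes, these 3 passed, with adjusted p = 0.0231 for C1qc, 0.0263 for C1qb and 0.0373 for Cfp. Their SEs there were 0.10 to 0.11, below the 0.21 to 0.27 of the fit of 11 libraries. With no filter on low counts C1qa (adjusted p = 2.35e-04), C3 (0.00228) and C1qc (0.0350) passed.

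C1qa was at 101, 96.9 and 209 CPM in M0 KD replicates 1, 2 and 4, against 225, 240.3 and 253 CPM in M0 NS. Replicate 4 lay just under the M0 NS range and the other M0 KD libraries far under it. C3 was at 122, 135 and 290 CPM in M0 KD, against 361, 429 and 203 CPM in M0 NS, and here the replicates numbered 4 of the groups crossed. Cfb, at 1.67, 1.33 and 3.17 CPM in M0 KD against 2.96, 4.06 and 1.07 CPM in M0 NS, crossed in the same way. The summed markers of the M1 state also crossed, at 456 CPM in M0 KD replicate 4 and 298 CPM in M0 NS replicate 4. The summed neutrophil and granulocyte precursor markers did not cross. They were at 987 CPM in M0 KD replicate 4 and 2758 CPM in M0 NS replicate 4. Whether these 2 libraries bear each other's labels was not tested.

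The log2 fold changes between M0 KD and M0 NS were -0.82 for C1qa (SE 0.33, edgeR adjusted p = 0.355), -0.86 for C3 (SE 0.35, adjusted p = 0.358) and -0.37 for Cfb (SE 0.46, adjusted p = 0.732). Without M0 KD replicate 4 they were -1.28, -1.36 and -0.84, and edgeR still called none of them (adjusted p = 0.3603, 0.3603 and 0.587). C1qb, C1qc and Cfp were then at -0.63, -0.68 and -0.48. Cfb turned to 0.04 without M0 NS replicate 2.

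Markers of other cells were looked at beside these M0 values, and edgeR called none of them in M0 KD against M0 NS. The summed level of the neutrophil and granulocyte precursor markers was 962 to 987 CPM in M0 KD against 1655 to 2758 CPM in M0 NS, all 16 having a log2 fold change below 0. The 12 macrophage markers together were at 20861 to 22129 CPM in M0 KD against 26741 to 27921 CPM in M0 NS. Fibroblast and stromal markers, whose cells can make C3 and factor B, summed to 29.6 to 74.7 CPM in M0 KD and 39.2 to 84.5 CPM in M0 NS, most of it from the fibronectin gene Fn1, and these ranges overlap. Of the 10 genes, 0 to 2 were at 0 in each M0 KD and M0 NS library, among them the proteoglycan gene Lum, while the collagen genes Col1a1 and Col1a2 had counts in every M0 library. The part of these cells in the M0 values was not tested.

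M1 KD against M1 NS gave the gapmer effect in the activated state. C3 was at 0.486 of its M1 NS level, and C1qb, C1qc, Cfb and Cfp had log2 fold changes between -0.16 and 0.34. With edgeR 0 of the 6 members were called, against 36.8% of all genes. At an unadjusted p under 0.05 stood 1 member, C3. DESeq2 and limma-trend each called 1, also C3, and limma-voom 0.

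C3 was at 2489 and 4130 CPM in M1 KD replicates 5 and 6, against 6853, 7394 and 6202 CPM in M1 NS replicates 1, 2 and 4. Both M1 KD libraries lay below all M1 NS libraries, as was so for 26.3% of all genes, and the M1 KD libraries differed from each other by more than the M1 NS libraries did. The log2 fold change was -1.04 (SE 0.40, 95% interval -1.92 to -0.17, edgeR adjusted p = 0.0593). C3 passed with DESeq2 (-1.02, adjusted p = 0.0194), limma-trend on the authors' normalized values (-1.06, 0.0497), library size as the only scaling (-1.09, 0.0486), no filter on low counts (-1.03, 6.31e-05) and the M1 libraries alone (-1.01, 0.0315). It also passed without M0 NS replicate 4 (adjusted p = 0.0417) or M0 KD replicate 4 (0.0236), libraries that enter only the shared estimate of the spread. Without M1 KD replicate 5 the value was -0.73 (adjusted p = 0.323), and over all 21 alternatives it ran from -1.46 to -0.73. C3 stood far above its M0 levels in both M1 KD libraries.

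C1qa was at 51.6 and 95.01 CPM in M1 KD, against 108, 160 and 76.9 CPM in M1 NS, with overlap (log2 fold change -0.65, SE 0.38, edgeR adjusted p = 0.194). It ran from -1.16 without M1 KD replicate 6 to -0.28 without M1 KD replicate 5, and passed only with no filter on low counts (-0.64, adjusted p = 0.00548). Cfp was at 609 and 751 CPM in M1 KD, against 587, 684 and 344 CPM in M1 NS (log2 fold change 0.34, SE 0.24, edgeR adjusted p = 0.290). The neutrophil and granulocyte precursor markers summed to 403 to 443 CPM in M1 KD and 386 to 483 CPM in M1 NS. These sums hold changes in both directions, with 3 of the 16 markers called higher and 3 lower in M1 KD (17.6% and 19.2% of all genes). C1qc was at 409 and 676 CPM in M1 KD, against 597, 763 and 360 CPM in M1 NS (log2 fold change -0.08, 95% interval -0.69 to 0.53). C1qb, at 0.17 (95% interval -0.49 to 0.82), and Cfb, at -0.16 (95% interval -1.12 to 0.81), also had intervals on both sides of 0. The sign of C1qb turned without M1 NS replicate 4 or M1 KD replicate 6, that of C1qc with upper-quartile factors and without M1 NS replicate 2 or M1 KD replicate 5, and that of Cfb without M1 NS replicate 4.

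Whether the gapmer effect differed between the states was tested as the M1 effect minus the M0 effect. No member passed with edgeR, where 27.3% of all genes did, and limma-voom and limma-trend also called 0. At an unadjusted p under 0.05 stood 1 member, Cfp. Its difference was 0.77 on the log2 scale (SE 0.32, edgeR adjusted p = 0.0933), made up of 0.34 in M1 and -0.44 in M0, and it passed with DESeq2 (0.81, adjusted p = 0.0496), with no filter on low counts (0.80, 0.0242) and without M1 NS replicate 2 (0.98, 0.0295). C1qb had a difference of 0.76 (SE 0.40, 95% interval -0.12 to 1.64, edgeR adjusted p = 0.183). It ran from 0.23 without M1 KD replicate 6 to 1.14 without M1 KD replicate 5, and passed only with no filter on low counts (0.79, adjusted p = 0.0353). For C3 it was -0.18 (95% interval -1.32 to 0.95).

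The C1q chains assemble in equal numbers in the protein. Their RNA shares were followed as parts of the summed counts of C1qa, C1qb and C1qc, which are not adjusted for exon length. C1qb held 66.3% and 68.9% in M1 KD replicates 5 and 6, 62.3% to 63.8% in M1 NS, 54.4% to 58.4% in M0 KD and 53.4% to 56.4% in M0 NS. Its share was higher in every M1 library than in every M0 library. C1qc held 29.95% and 27.2% in M1 KD, 30.7% to 31.1% in M1 NS, 35.7% to 37.5% in M0 KD and 36.1% to 37.5% in M0 NS, so it was lower in every M1 library. C1qa held 3.77% and 3.83% in M1 KD, 5.57% to 6.61% in M1 NS, 5.19% to 9.87% in M0 KD and 7.45% to 9.14% in M0 NS. The M0 KD value of 9.87% came from replicate 4. These shares do not depend on the scaling between libraries, and no test was run on them. Without adjustment for length they compare libraries, not chains. Per kilobase of exon, C1qb, C1qc and C1qa had mean shares of 72.4%, 20.1% and 7.51% in M1 NS. In M0 NS these were 65.5%, 24.5% and 9.97%.

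**Figure D3:**
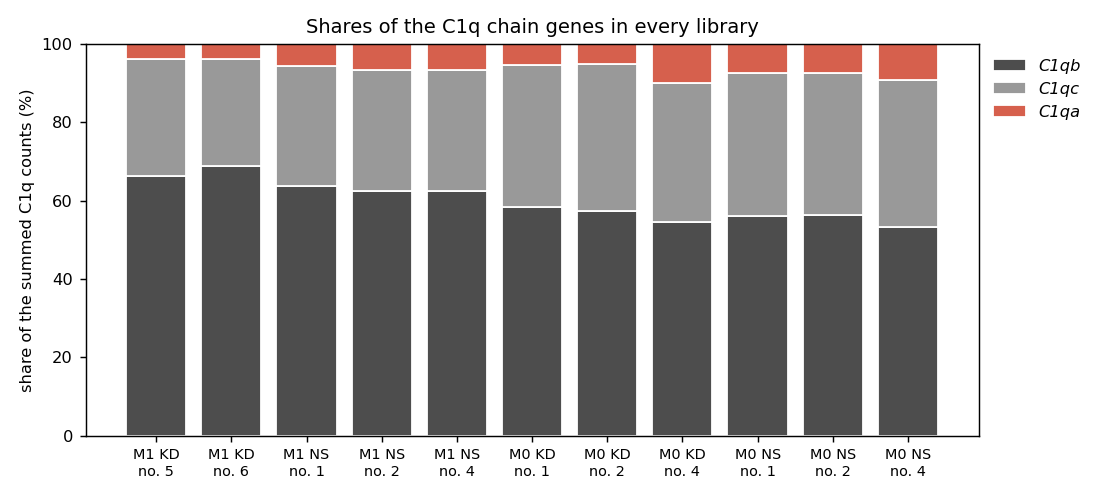
Share of each C1q chain gene in the summed counts of the 3 genes (y axis, percent) in each of the 11 libraries (x axis), ordered by group with the label number below. C1qb takes 62.3% or more in every M1 library and 58.4% or less in every M0 library.

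Patterns over the 11 libraries were compared as the root mean square difference of log2 CPM after each gene was centred on its own mean. C1qc lay 0.24 from Cfp, 0.26 from C1qb and 0.35 from C1qa, and C1qb lay 0.19 from Cfp, so that Cfp, on another chromosome, was nearer to either of these chains than they were to each other. C1qa lay 0.53 from C1qb and 0.54 from Cfp. C3 and Cfb lay 0.66 from each other and at least 2.39 from the other members. Of the 8319 other genes whose log2 CPM averaged 3 or more, those nearest to the mean of the C1q genes were Herpud1 (0.15), Cd22 (0.21), Sh3bp1 (0.22), Vav2 (0.22) and Plac8 (0.24). The nearest to Cfp were Nfix, Ttyh3 and Iffo1 (0.14 to 0.15). For C3 they were Kynu, Nfkbie and Bcl2a1d (0.44 to 0.46), the last of which has near-identical copies that can share reads, and for Cfb they were Ifi205, Clec4e and AW112010 (0.33 to 0.44).

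The rest of the pathway was described from 51 other complement genes in the table, of which 29 had enough counts to be tested. In M1 NS against M0 NS, 6 rose, 12 fell and 11 were not called (26.9% and 28.6% of all genes rose and fell), with a median log2 fold change of -0.32 against -0.04 over all genes. In M0 KD against M0 NS edgeR called 0 of the 29 (5 at an unadjusted p under 0.05, and 0 with DESeq2, limma-voom or limma-trend). In M1 KD against M1 NS, 4 rose and 10 fell (17.6% and 19.2% of all genes), with a median of 0.14 against 0.001 over all genes. In M1 KD against M0 KD, 7 rose and 11 fell (26.9% and 31.4% of all genes). The 22 genes left out for low counts include the terminal components C6, C7 and C9, which averaged at most 0.133 CPM in any group.

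Among 9 tested genes of the classical and lectin pathway, 3 rose and 2 fell in M1 NS. C1ra, the protease that C1q activates first, was at 21.1 ± 1.99 CPM in M1 KD (SD, n = 2), 8.51 ± 1.29 in M1 NS, 3.89 ± 0.481 in M0 KD and 4.19 ± 0.580 in M0 NS (SD, n = 3 each). Its level thus rose with M1 in NS cells and further in M1 KD (log2 fold change 1.31 against M1 NS, SE 0.19, edgeR adjusted p = 2.66e-04). The difference of the gapmer effects was 1.42 for C1ra (SE 0.26, edgeR adjusted p = 0.00215). C4b, a C4 gene whose reads can be shared with its near-identical copy C4a and whose level is therefore uncertain, went the other way under the gapmer. It was at 3.02 and 7.90 CPM in M1 KD, 18.4 to 22.6 in M1 NS, 1.86 to 3.19 in M0 KD and 1.09 to 6.22 in M0 NS, with a log2 fold change of 2.56 with M1 (edgeR adjusted p = 8.48e-04) and of -1.94 in M1 KD against M1 NS (adjusted p = 0.0183). Fcna, which encodes a ficolin, had the highest mean of this list over all 11 libraries, though not within the M1 groups. It was at 6.04 ± 2.21 CPM in M1 NS against 17.1 ± 1.75 in M0 NS (SD, n = 3 each; edgeR adjusted p = 0.00122). Fcnb, also a ficolin gene, was at 0.329 ± 0.163 CPM in M1 NS against 7.55 ± 3.69 in M0 NS (SD, n = 3 each). Its log2 fold change was -4.54 (edgeR adjusted p = 1.24e-05). C2, whose cleaved form is the protease of the classical convertase, was between 0.41 and 3.18 CPM in all libraries, and it shares the limit on counting given for Cfb.

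Of 6 tested regulators, 1 rose and 2 fell in M1 NS. Cd59a, which blocks the membrane attack complex, fell by 2.51 on the log2 scale with M1 (edgeR adjusted p = 8.38e-07) and rose by 1.25 in M1 KD against M1 NS (adjusted p = 0.00116). Serping1, the C1 inhibitor, was at 7.90 ± 2.98 CPM in M1 NS against 0.154 ± 0.0731 in M0 NS (SD, n = 3 each; log2 fold change 5.67, edgeR adjusted p = 1.05e-05). Cr1l, the rodent regulator Crry and the most abundant of this list in each group, was at 89.4 and 117 CPM in M1 KD against 62.8 to 84.7 CPM in M1 NS (log2 fold change 0.46, edgeR adjusted p = 0.0414). Of the alternative pathway, C5 and terminal components only 2 of 8 were tested, and they went opposite ways. The one with more counts, C8g, was at 1.08 ± 0.257 CPM in M1 NS and 2.37 ± 0.525 in M0 NS (SD, n = 3 each; edgeR adjusted p = 0.0241). Hc, the gene of C5, was called higher in M1 NS (log2 fold change 4.74, edgeR adjusted p = 0.0107). It had only 74 counts over all libraries, and its CPM ranges overlapped.

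Receptors for complement fragments and C1q were lower in M1 NS for 7 of 12 tested genes and higher for 1, and lower in M1 KD than in M1 NS for 9 of 12. Falls were called for 28.6% and 19.2% of all genes in these comparisons. C5ar1, a receptor for C5a, was at 6.42 and 8.16 CPM in M1 KD, 33.7 to 51.6 in M1 NS, 284 to 331 in M0 KD and 303 to 322 in M0 NS. Its log2 fold change was -2.93 with M1 (edgeR adjusted p = 6.47e-08) and -2.50 in M1 KD against M1 NS (adjusted p = 9.75e-06). C5ar2, the other C5a receptor, had -3.58 and -1.93 in these comparisons, and Cd93, a membrane protein first described as a C1q receptor, -2.62 and -1.15. Lrp1, a large endocytic receptor with the highest mean of the list over all 11 libraries, though not within the M1 groups, was at 152 ± 83.6 CPM in M1 KD (SD, n = 2) against 586 ± 203 in M1 NS (SD, n = 3). C3ar1, which binds the C3a fragment, was at 236 and 335 CPM in M1 KD against 485 to 626 CPM in M1 NS (log2 fold change -1.01, edgeR adjusted p = 0.00209). These genes passed the test of the difference between the states as well, C3ar1 with -1.09 (edgeR adjusted p = 0.00907), while C3 itself did not.

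**Figure D4:**
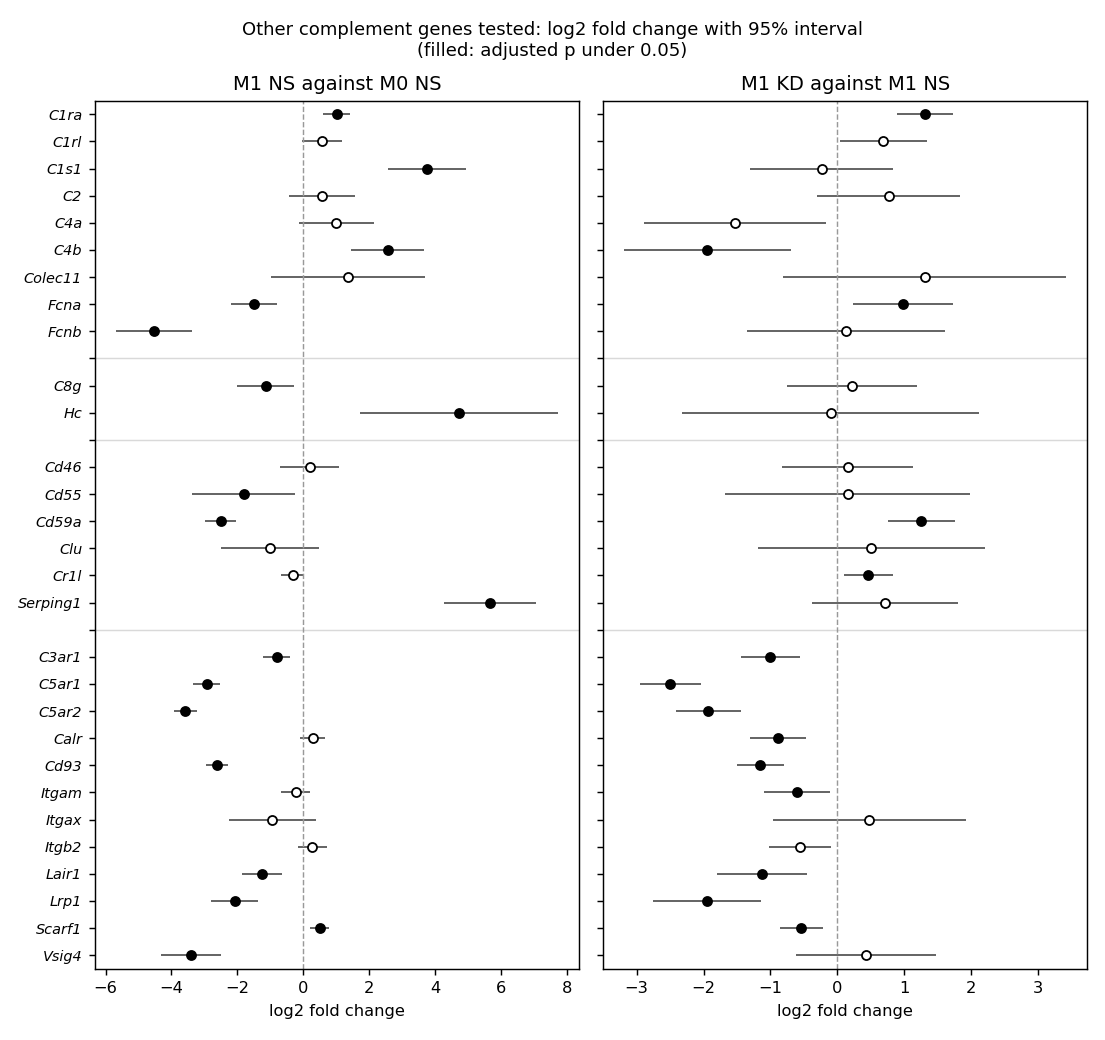
Log2 fold change with 95% interval (x axis) of the 29 other complement genes tested (y axis), in M1 NS against M0 NS on the left and M1 KD against M1 NS on the right, each with its own scale; lines part the classical and lectin pathway, the terminal components with C5, regulators and receptors. Filled points passed the edgeR test, 18 on the left and 14 on the right, with 9 of the 12 receptors lower in M1 KD.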

How the data were processed

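Libraries were grouped by their titles. The submitters' processing notes name GRCm38, Subread 1.5.2 with its featureCounts, STAR 2.5.2b and Trimmomatic 0.36. The sources used here give neither the strand setting nor the annotation release. The deposited count table holds the authors' raw counts of 42375 named genes. Its 1 row with a blank name, at most 0.000305% of counts, was left out. The second deposited table, a normalized signal of 22812 genes, was found to be each gene's count over a constant of its library and served only for an alternative.

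Counts of 15024 genes kept by filterByExpr (minimum count 10, minimum total 15) were fitted over all 11 libraries with edgeR 4.0.16 in R 4.3.3 (TMM factors, 1 coefficient per group, robust glmQLFit, glmQLFTest). The threshold for a call was 0.05 after Benjamini-Hochberg adjustment across the 15024 genes. Each SE is the log2 fold change divided by the square root of its F value. Intervals are at 95%. The procedure was tested on simulated counts. Counts of members were lowest for Cfb in M0, at 45 to 153 a library.

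The members and gene lists were chosen with earlier results of these data known. All 6 members are named in each comparison. Of other complement genes, the called ones with the smallest p (at most 6 a comparison) and the most abundant tested gene of each list were to be named. C2, C4b and C3ar1 were added in places for their link to members, and Hc was added to stand beside C8g. A complement regulator is not reported here and is in none of the list counts or medians. Alternatives used DESeq2 1.42.0, limma 3.58.1, other scalings and filters, fewer libraries and the label number as a block. Promoters came from RefSeq (GRCm38.p6), with 6 motifs chosen with the sequences known.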

Additional observations from a re-analysis of the deposited data

How the results depend on the processing

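Of 648 log2 fold changes of members under alternatives, 597 kept direction and side of the threshold, 2 lost and 27 gained a call, and 22 turned sign. Of 114 group levels, 10 moved by more than 1 SD, all with library size as the only scaling. In M0 KD against M0 NS (0 members, 0 other complement genes and 0 of all genes called), no filter on low counts gave 3, 1 and 385 calls, the M0 libraries alone 3, 2 and 1103, and DESeq2 181 of all genes. Leaving out single replicates gave 0 to 1 calls there. In M1 KD against M1 NS (0 members and 5535 genes), library size alone, DESeq2, limma-trend and the M1 libraries alone called 1 member each, no filter 2 and single replicates left out 0 to 1. The M1 libraries alone called 3104 genes, and leaving out single replicates 3658 (without M1 KD replicate 5) to 5796. In M1 KD against M0 KD library size alone called 4 members rather than 2. For the difference of the gapmer effects, no filter called 2 members and 15 other complement genes rather than 0 and 9, DESeq2 called 1 member, and single replicates left out gave 0 to 1. Why these counts changed was not tested, beyond the fewer libraries or more genes each setting holds.

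Signs turned for C1qc in M1 KD against M1 NS with upper-quartile factors (0.067), and for C1qb (-0.24) and Cfp (-0.44) in M1 KD against M0 KD with library size alone. With single replicates left out, the log2 fold change ran from -0.84 to 0.040 for Cfb in M0 KD against M0 NS. In M1 KD against M1 NS it ran from -0.37 to 0.55 for C1qb, -0.49 to 0.23 for C1qc and -0.37 to 0.33 for Cfb. In M1 KD against M0 KD it ran from -0.28 to 0.63 for C1qb and -0.11 to 0.18 for Cfp. The difference of the effects ran from -0.34 to 0.62 for C1qa, -0.59 to 0.32 for C3 and -0.20 to 0.69 for Cfb. The cause was not tested.

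Library size alone split the calls over all genes into 2348 higher and 6447 lower in M1 NS against M0 NS (4044 and 4294 with TMM) and 2376 and 7077 in M1 KD against M0 KD (4040 and 4715). Upper-quartile factors gave 3454 and 2177 in M1 KD against M1 NS (2645 and 2890) and 2474 and 1705 for the difference (1965 and 2130). Correlations of deviations were over 0.1 for 2 of 9 library pairs with the same label number and for 1 of 18 pairs with different numbers. They ran from -0.11 to 0.14 and from -0.14 to 0.17. With 3 libraries in each of these groups, this cannot decide whether label numbers pair the libraries. With the number as a replicate block (M1 KD left out), 5 members and 8048 genes were called in M1 NS against M0 NS and 0 members and 0 genes in M0 KD against M0 NS. Cfb in M0 cells rested on 45 to 153 counts a library, the lowest of any member.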
